A study of Drosophila melanogaster with 2 samples.

Results

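The genes described here are 10 temporal identity genes of neuroblasts, the neural stem cells of the fly, out of 14210 genes in the deposited tables. They were chosen by name: Imp, chinmo, svp and cas as factors of young neuroblasts, Syp (listed as CG17838) and Eip93F as factors of old neuroblasts, and hb, Kr, nub and pdm2 as factors of the embryonic series. RNA was sequenced from type II neuroblast lineages of Drosophila melanogaster larvae late in the third instar, with 1 library for osa RNAi and 1 for wild type. In the osa RNAi flies, worniu-Gal4 with ase-Gal80 drove UAS-CD8::GFP and a hairpin against osa (VDRC TID 7810), whereas the wild type flies (strain w1118) carried UAS-CD8::GFP alone with the same drivers. This driver pair is active in type II lineages, so the knockdown was directed at these lineages, and only the osa RNAi flies carried an RNAi transgene. Brains were dissected 5 days after a 24 h egg collection at 25 °C, and cells with strong GFP were sorted. By the labels, the osa RNAi sort contained neuroblasts, cells that had reverted to a neuroblast-like state and intermediate neural progenitors (INPs), and the wild type sort contained neuroblasts, INPs and ganglion mother cells without neurons.

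Neuroblasts change the factors they express as they age, so that the neurons born from them differ with birth order. In the embryo, the transcription factors Hunchback (hb), Kruppel (Kr), Nubbin and Pdm2 (nub and pdm2, a pair of related POU-domain proteins) and Castor (cas) follow one another. In the larva, neuroblasts first hold high Imp and Chinmo and later high Syp and Eip93F, with Seven-up (svp) and ecdysone signalling needed for the switch. Imp and Syp are RNA-binding proteins that oppose each other, and their ratio is widely used as a measure of neuroblast age.

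Levels are given in FPKM, fragments counted per kilobase of transcript after scaling for library depth, a unit that can be compared between genes. Judged by the widths of its intervals, the osa RNAi library held 15707014 reads on genes and the wild type library 10114559. The targeted gene osa, which encodes a subunit of the SWI/SNF chromatin remodelling complex, stood at 15.6 FPKM in osa RNAi (interval 15.01 to 16.2) and 31.3 FPKM in wild type (30.3 to 32.3). As neither genotype was replicated, no difference below has a replicate check or a test, and every interval covers counting error only. In sorted pools of cells, fewer cells of a type and less RNA per cell cannot be told apart.

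All 10 genes had a row with an estimate marked OK in both libraries. The 6 early and late larval factors had a mean of at least 1 FPKM and were read against all 7144 genes with such a mean, called measured genes below, whereas none of the 4 embryonic factors reached this mean. The 2-fold rule asked for a difference of at least 1 in log2(FPKM + 1) and for deposited intervals that did not overlap. The targeted gene osa, with a difference of −0.96 and a plain FPKM ratio of 0.499, fell just short of this rule. By this rule 2 of the 6 measured genes, Imp and svp, were higher in osa RNAi, where 7.78% of all measured genes were, and none was lower, where 6.79% of all measured genes were. At a 1.5-fold threshold 4 of the 6 were higher (Imp, svp, cas and Syp), beside 17.1% of all measured genes, and 1 was lower (chinmo), beside 14.3%. The median difference of the 6 genes was 0.91, beside 0.04 for all measured genes.

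**Figure D1:**
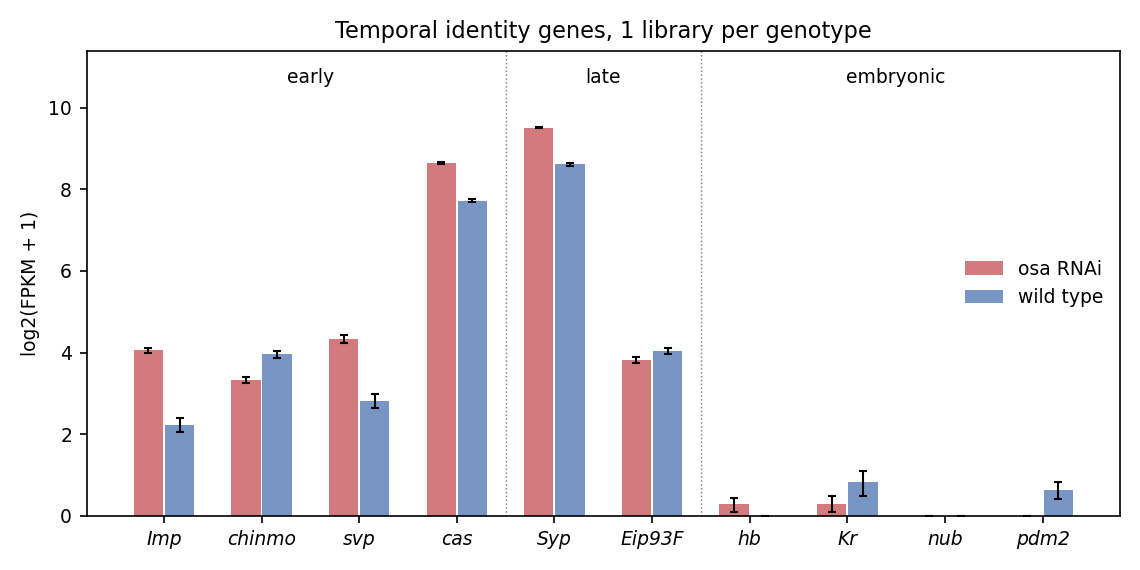
Levels of the 10 genes as log2(FPKM + 1) in the osa RNAi library (red, left bar of each pair) and the wild type library (blue, right bar), with bars for the deposited counting intervals. Syp and cas stand far above the other genes in both libraries, Imp and svp are higher in osa RNAi, and the 4 embryonic factors lie below 1 FPKM.

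Among the early factors, Imp differed most. Imp (FBgn0262735, X from 10682721 to 10716815) encodes an RNA-binding protein of the IGF2BP family that marks young neuroblasts. It stood at 15.6 FPKM in osa RNAi (14.8 to 16.4) and 3.71 FPKM in wild type (3.14 to 4.27), so the intervals lay well apart. The ratio of these levels was 4.22 (95% counting interval 3.601 to 4.93), a difference of 1.82 in log2(FPKM + 1). Imp lay at percentile 55.4 of the genes above 0 in osa RNAi and at percentile 22.9 in wild type, and so was a gene of middling level in osa RNAi and a low one in wild type.

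Imp was the only one of the 10 genes in the authors' deposited table of 15 genes at a false discovery rate of 0.01. The authors' deposited table gave 1328 normalized counts in osa RNAi and 206 in wild type, a 6.44-fold higher value in osa RNAi, with an adjusted p of 0.000525. With 1 library per genotype, that p does not rest on replicates, and the sources used here do not say how the spread was estimated. The other 9 genes were not in this filtered table, so the authors' values for them were not analysed here.

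The size of the Imp difference depended on whether reads or FPKM were compared. The FPKM intervals implied 1613.5 reads in osa RNAi and 171.5 in wild type, and the authors' deposited table corresponded to 1671 and 164 whole reads. After division by the depth of the libraries the implied reads were 6.06-fold higher in osa RNAi (5.18 to 7.09), an interval that lay above the FPKM ratio of 4.22. Imp is annotated with 11 transcripts in the files, and each FPKM stood for 103.3 implied reads in osa RNAi and 46.3 in wild type. Relative to genes with 1 transcript, the reads behind 1 FPKM of Imp were 1.45 times as many in osa RNAi as in wild type. This placed Imp at percentile 99.2 of 2606 genes with several transcripts and at least 100 reads in each library, whose central 95% ran from 0.852 to 1.27. The tables give no level per transcript, and a difference in transcript use was not tested.

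The orphan nuclear receptor gene svp (FBgn0003651, 3R from 8084471 to 8128507), whose product acts in the early to late switch, was the second gene past the rule. It stood at 19.2 FPKM in osa RNAi (18.0 to 20.5) and 6.06 FPKM in wild type (5.21 to 6.92), with intervals apart. Its ratio was 3.17 by FPKM (2.72 to 3.69) and 2.997 by implied reads (2.57 to 3.49), so both measures gave about the same size. Its locus contains CG17738 and Sfp87B, which were listed at 0 in both libraries.

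The zinc-finger gene cas (FBgn0004878, 3R from 1538664 to 1543022), the last of the embryonic series and expressed again in young larval neuroblasts, had by far the highest level of the early factors. It stood at 400.5 FPKM in osa RNAi (395.3 to 405.6) and 210.3 FPKM in wild type (205.7 to 214.9), at ranks 280 and 477 among all genes. Its ratio was 1.90 (1.86 to 1.95) and its log2(FPKM + 1) difference 0.93, just short of the 2-fold rule.

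The BTB zinc-finger gene chinmo (FBgn0086758, 2L from 1651260 to 1704682), whose product specifies early-born fates, differed the other way. It stood at 9.08 FPKM in osa RNAi (8.55 to 9.61) and 14.5 FPKM in wild type (13.6 to 15.4). Its level was thus 1.598-fold lower in osa RNAi (1.47 to 1.74), or 1.37-fold lower by implied reads (1.26 to 1.49), short of the 2-fold rule. Of the 4 early factors, 3 were thus higher in osa RNAi and chinmo was lower, each with intervals apart.

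The late factors did not differ in the same direction either. Syp (CG17838, FBgn0038826, 3R from 16582451 to 16631963), an RNA-binding protein of the hnRNP family, had the highest level of all 10 genes. It stood at 729 FPKM in osa RNAi (720 to 738) and 391 FPKM in wild type (383 to 399), at ranks 176 and 281 of all genes. Its ratio was 1.86 (1.82 to 1.91) and its log2(FPKM + 1) difference 0.90, again short of the rule. CG31195 and Takl1 lie within the Syp locus. CG31195 was at 2.004 FPKM in osa RNAi and 5.60 in wild type, and Takl1 at 2.77 and 1.401, levels far below that of Syp. The sources used here do not say whether reads were assigned by strand.

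The ecdysone-induced factor gene Eip93F (FBgn0013948, 3R from 17774836 to 17837910) was nearly level between the libraries. It stood at 13.1 FPKM in osa RNAi (12.5 to 13.8) and 15.4 FPKM in wild type (14.5 to 16.3). By FPKM it was 1.17-fold lower in osa RNAi (1.09 to 1.26), and by implied reads its ratio was 0.928 with an interval (0.861 to 1.00) that reached 1.

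**Figure D2:**
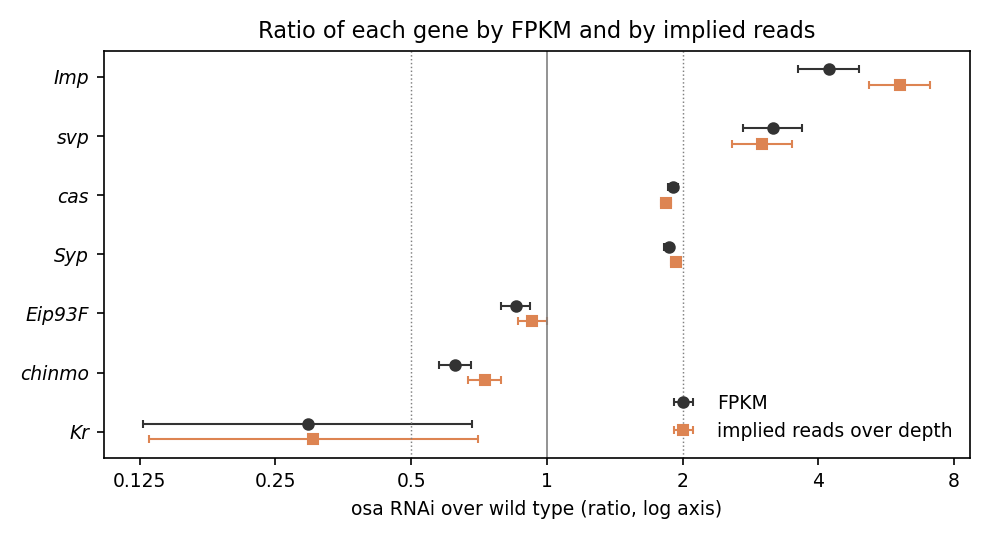
Ratio of osa RNAi over wild type for the 7 genes above 0 in both libraries, by FPKM (circles) and by implied reads divided by library depth (squares), with 95% counting intervals on a log axis; dotted lines mark 2-fold. Both measures place Imp and svp above 2-fold and cas and Syp just below it, and they differ most for Imp, at 4.22 and 6.06.

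The 4 embryonic factors were at very low levels or listed at 0. The zinc-finger gene hb (FBgn0001180, 3R from 4517038 to 4523540), the first of the embryonic series, was at 0.212 FPKM in osa RNAi (0.0622 to 0.361), from 8.02 implied reads, and listed at 0 in wild type. An equal level would have given 5.16 reads in wild type, and 59.7% of 365 genes with a similar expectation were listed at 0 there. The next factor, Kr (FBgn0001325, 2R from 21114138 to 21117057), was at 0.228 FPKM in osa RNAi and 0.774 FPKM in wild type, from 8 and 17 implied reads. The deposited intervals of Kr lay apart, and its ratio was 0.295 with a wide interval (0.127 to 0.683).

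Of the POU-domain pair, which are neighbours on 2L, nub (FBgn0085424, from 12587871 to 12628143) was listed at 0 in both libraries. Its partner pdm2 (FBgn0004394, from 12657829 to 12686313) was listed at 0 in osa RNAi and was at 0.559 FPKM in wild type (0.331 to 0.787), from 24.0 implied reads. An equal level would have given 37.3 reads in osa RNAi, and 36.0% of 663 genes with a similar expectation were listed at 0 there. These shares cannot tell an absent transcript from a missed one, so a listed 0 is not read here as absence. No difference between the genotypes is drawn for hb, nub and pdm2.

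The order of the levels differed between the libraries below the top 2 genes. In osa RNAi the order was Syp, cas, svp, Imp, Eip93F and chinmo, and no neighbouring pair had overlapping intervals. In wild type it was Syp, cas, Eip93F, chinmo, svp and Imp, and the intervals of Eip93F and chinmo overlapped while the other neighbours lay apart. Imp and svp thus ranked above Eip93F and chinmo in osa RNAi and below both in wild type. Among the embryonic factors, the intervals of Kr and hb overlapped in osa RNAi and those of Kr and pdm2 in wild type.

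The Imp to Syp ratio, which does not depend on how the libraries are scaled, was low in both. It was 0.0214 in osa RNAi (95% counting interval 0.0204 to 0.0225) and 0.00947 in wild type (0.00815 to 0.0110). Syp was thus 46.7 times the level of Imp in osa RNAi and 105.6 times in wild type. The osa RNAi ratio was 2.26 times the wild type ratio (1.93 to 2.65) by FPKM and 3.14 times by implied reads. Imp and Syp were both higher in osa RNAi, and the ratio differed because Imp did so by more.

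The pair of chinmo and Eip93F gave the opposite direction. Their ratio was 0.692 in osa RNAi (0.642 to 0.745) and 0.942 in wild type (0.867 to 1.02), so the osa RNAi ratio was 0.734 times that of wild type (0.656 to 0.821). The remaining 6 pairs of an early with a late gene were added after the values had been seen. Across all 8 pairs, the ratio by FPKM was higher in osa RNAi for 6 and lower for the 2 that contained chinmo. By implied reads it was higher for 5 and lower for 3, the third being cas over Syp with a quotient of 0.953. By FPKM, the ratio of Imp to Eip93F was 1.19 in osa RNAi and 0.241 in wild type, and that of svp to Eip93F 1.46 and 0.394. The ratio of cas to Syp was 0.549 in osa RNAi and 0.537 in wild type, and the interval of their quotient (0.987 to 1.06) included 1. The 8 pairs share genes and libraries, so they are not separate observations, and the direction of an early to late measure depended on which early gene was used.

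**Figure D3:**
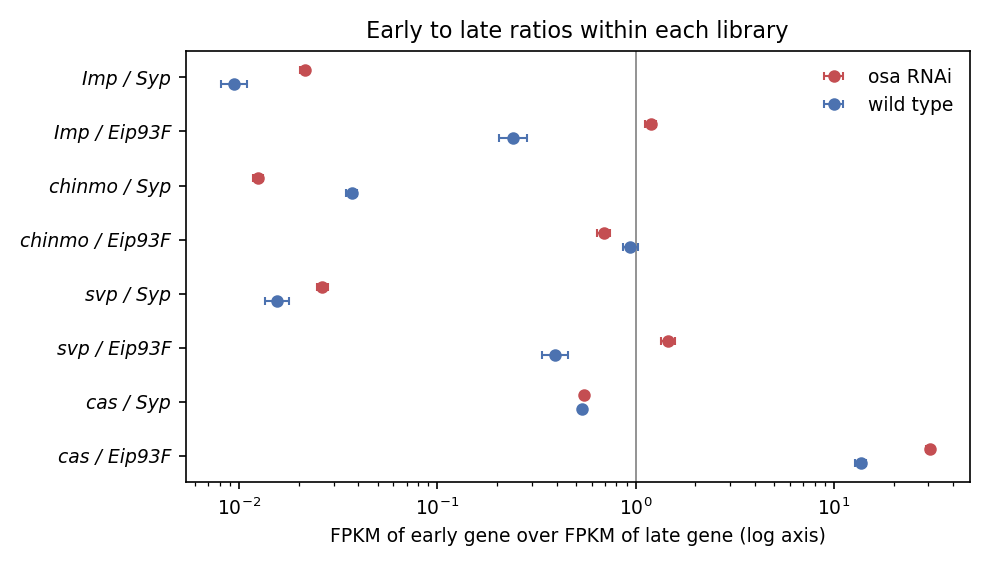
FPKM of each early gene over each late gene, in osa RNAi (red, upper point of each pair) and wild type (blue, lower point), with 95% counting intervals on a log axis. Ratios with Imp or svp are higher in osa RNAi, those with chinmo are lower, and cas over Syp is nearly the same at 0.549 and 0.537.

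Genes that act with these factors were taken from lists, which share some genes with each other and with the 10 genes. Among 7 further temporal factors of neuroblasts, grh was at least 2-fold higher in osa RNAi and D at least 2-fold lower, while the other 5 were short of the rule (median difference 0.09), beside 7.78% higher and 6.79% lower among all measured genes. Grainyhead (grh), a late factor of embryonic neuroblasts that is kept in larval ones, was at 92.2 FPKM in osa RNAi and 33.6 in wild type, and the Sox gene Dichaete (D) at 23.8 and 82.3. The gene dan, which encodes a nuclear protein that helps maintain the early competence of embryonic neuroblasts, was at 2.45 FPKM in osa RNAi and 5.62 in wild type, and it passed the rule as lower with a pseudocount of 0.1 and with scaling to neuroblast markers. For the homeobox gene hth the levels were 16.8 FPKM in osa RNAi and 9.62 in wild type. Of 12 factors expressed in succession in INPs or optic lobe neuroblasts, 1 was higher (grh) and 4 were lower, with a median of −0.17, again beside 7.78% and 6.79% of all measured genes. The 4 lower genes were opa (listed at 0 in osa RNAi and 22.5 FPKM in wild type), hbn (1.49 and 22.5 FPKM), ey (0.828 and 4.95 FPKM) and D. At a 3-fold threshold the call of grh was lost. The call of ey was lost with a pseudocount of 5 and with a minimum mean of 5 FPKM.

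Ecdysone is the steroid hormone that drives the late larval switch, and Activin signalling promotes expression of its receptor. Of 19 regulators in this list, 14 were measured, 2 were at least 2-fold higher in osa RNAi and 0 were lower, where 7.78% and 6.79% of all measured genes were. Their median difference was 0.58. The higher genes were Hr39, a nuclear receptor gene (3.48 FPKM in osa RNAi and 0.991 in wild type), and tai, which encodes a coactivator of the ecdysone receptor (7.19 and 2.73 FPKM). The receptor gene EcR was at 6.12 FPKM in osa RNAi and 3.0005 in wild type, and its partner gene usp at 8.33 and 16.5, so that the receptor partners differed in opposite directions without passing the rule. The Activin receptor gene put was at 13.7 FPKM in osa RNAi and 6.86 in wild type. The gene br, an ecdysone target that marks late fates, was at 27.0 FPKM in osa RNAi and 27.1 in wild type with overlapping intervals. Both calls of this list were lost with a pseudocount of 5, with a minimum mean of 5 FPKM, at a 3-fold threshold and with scaling to neuroblast markers, where 1 gene, usp, was at least 2-fold lower. Calls were also gained: EcR was higher with a pseudocount of 0.1 and put with upper quartile scaling. At a 1.5-fold threshold 7 genes were higher and 1 (usp) was lower, beside 17.1% and 14.3% of all measured genes.

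Of 6 genes reported as targets of Imp or Syp, 1 was at least 2-fold higher in osa RNAi, none was lower and 5 did not pass the rule (median −0.11), beside 7.78% higher and 6.79% lower among all measured genes. This list includes chinmo and Eip93F, described above, and br and mamo, which are also in the ecdysone list. The growth regulator gene Myc (dm), whose RNA Imp stabilises, was at 45.3 FPKM in osa RNAi and 20.9 in wild type. The gene pros, whose product ends neuroblast proliferation and whose RNA Syp stabilises, was at 20.6 FPKM in osa RNAi and 38.0 in wild type. The zinc-finger gene mamo was at 9.12 FPKM in osa RNAi and 5.54 in wild type, a ratio of 1.65, whereas its ratio by implied reads was 0.983 (0.871 to 1.11). The call of dm was lost with a pseudocount of 5, at a 3-fold threshold and with scaling to neuroblast markers, where 1 gene, pros, was at least 2-fold lower.

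**Figure D4:**
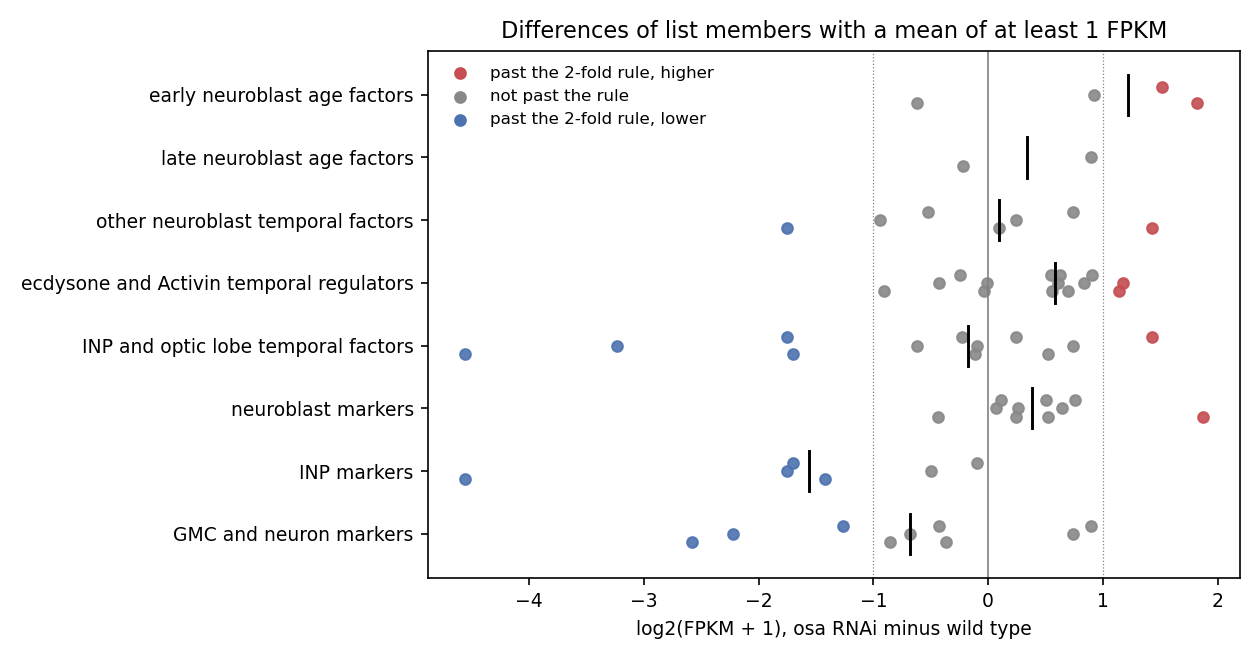
Difference in log2(FPKM + 1), osa RNAi minus wild type, for measured genes of 8 lists; each point is a gene, black lines are list medians and dotted lines mark a difference of 1. The early factors have a median of 1.22, the neuroblast markers 0.38, and the INP markers −1.56.

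Markers of the cells in the sorts moved between the same libraries, and their part in the differences above was not tested. Of 10 neuroblast markers, 9 had a difference above 0, as did 3796 of the 7144 measured genes. Of the 10, 1 (pnt) passed the rule as higher, where 7.78% of all measured genes did. The marker below 0, Sp1, was 1.36-fold lower in osa RNAi by FPKM (1.28 to 1.44), with intervals apart. By implied reads Sp1 was 1.49-fold lower. The 10 markers summed to 704 FPKM in osa RNAi and 517 in wild type, of which mira made up 302 and 192. All 6 INP markers had a difference below 0, as did 3348 of the 7144 measured genes. Of the 6, 4 (ham, D, ey and opa) passed the rule as lower, where 6.79% of all measured genes did. D, ey and opa were also among the lower genes of the INP and optic lobe list above. The INP marker erm was at 41.8 FPKM in osa RNAi and 44.7 in wild type, with overlapping intervals. The 6 INP markers summed to 112 FPKM in osa RNAi and 244 in wild type. Of 9 measured ganglion mother cell and neuron markers, 7 had a difference below 0. Of these, 3 (nerfin-1, Snap25 and Rdl) were at least 2-fold lower, where 6.79% of all measured genes were. The other 2 had a difference above 0 without passing the rule: Syt1 was at 1.63 FPKM in osa RNAi and 0.578 in wild type, and VGlut at 2.61 and 0.940. Rdl was 4.96-fold lower in osa RNAi by FPKM but 1.99-fold lower by implied reads (1.46 to 2.71). The 14 listed genes summed to 71.1 FPKM in osa RNAi and 133 in wild type. Imp, chinmo and Syp are also made in neurons, and VGAT was at 0 in osa RNAi and para in wild type. Of 4 measured glial genes, 1 (loco) was at least 2-fold higher, at 12.4 FPKM in osa RNAi and 5.53 in wild type. Another 1 (gcm) was at least 2-fold lower, at 1.05 and 3.45 FPKM, beside 7.78% higher and 6.79% lower among all measured genes. By implied reads loco was 1.86-fold higher (1.63 to 2.13) and gcm 3.30-fold lower. The glial factor gene repo was at 0.709 FPKM in osa RNAi and 0 in wild type, and alrm was at 0 in both. The 9 glial genes summed to 251 FPKM in osa RNAi and 291 in wild type, of which nrv2 and Eaat1 made up 235.7 and 281.4. Haemocyte markers summed to 1.08 FPKM in osa RNAi and 4.87 in wild type, and without He (listed at 0 in osa RNAi and 4.29 FPKM in wild type, from 20 reads) to 1.08 and 0.575. Tracheal, fat body and muscle markers summed to 8.35 FPKM in osa RNAi and 15.3 in wild type. Of the 2 measured, 1 gene, Gasp, was at least 2-fold lower (3.99 and 9.61 FPKM), where 6.79% of all measured genes were. When osa RNAi was scaled to the neuroblast markers dpn, wor and mira, the differences were 1.56 for Imp, 1.25 for svp, 0.65 for cas, 0.62 for Syp, −0.47 for Eip93F and −0.87 for chinmo, so Imp and svp passed the rule on this scale too. The FPKM ratios of these markers were 1.09 for dpn, 1.05 for wor and 1.57 for mira, so this scale rested mostly on mira.

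The genes whose values lay nearest to those of Imp were Unc-76 (14.7 FPKM in osa RNAi and 3.71 in wild type), Nplp2 (16.1 and 3.95 FPKM) and CG6321 (14.7 and 3.55 FPKM). Nearest to Syp were CG6486 (695 FPKM in osa RNAi and 398 in wild type), fabp (640 and 443 FPKM) and mod (572 and 390 FPKM). Likeness was the distance in log2(FPKM + 1) over the 2 libraries, at most 0.0954 for the genes near Imp and 0.351 for those near Syp, among 14153 genes. With only 2 values per gene, it shows a similar level and difference and nothing more.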

How the data were processed

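PolyA RNA of the sorted cells was sequenced from stranded libraries, per the labels' protocols. For each library the authors deposited FPKM values with bounds and a status flag, covering 14210 genes, per the file headers. Cufflinks 1.3.0, TopHat 1.4.1, DESeq 1.8.3, HTSeq and BWA 0.6.1 are listed in the submitters' processing notes. The genome build was not named in the sources used here, and coordinates are as in the files, counted from 1. The authors also deposited DESeq output for 15 genes, with signal columns (counts divided by size factors), a fold ratio and its log2 (wild type over osa RNAi, inverted here), and p-values. All values of the signal columns were whole reads (within 0.01) at size factors of 1.26 for osa RNAi and 0.795 for wild type.

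Implied reads were taken from the FPKM bounds, which lay at 2 counting errors. They were whole within 0.02 for 94.0% of 945 osa RNAi genes and 93.6% of 782 wild type genes with 1 transcript and under 50 reads. For genes with several transcripts they are an approximation. Reads carry no molecular identifiers, so intervals cover counting error only.

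Differences are osa RNAi minus wild type in log2(FPKM + 1), a scale that understates differences of low genes. Measured genes had a mean of at least 1 FPKM and status OK in both libraries (7144 genes). Named genes were the 10 genes, osa and up to 4 genes of each further temporal list with the largest differences. Genes past the rule in all lists, genes in loci of the 10, and the 3 nearest in level to Imp and Syp were also named. The markers dpn, wor and mira were named as the genes used for scaling. EcR, br and the marker genes Sp1, erm, Syt1, VGlut, VGAT, para, repo, alrm, nrv2 and Eaat1 were named after their values were seen. Members and lists were chosen with earlier results of these data known. Python 3.11.15, numpy 2.4.6 and pandas 2.3.3 were used. Sequences of these genes were not used here.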

Additional observations from a re-analysis of the deposited data

How the results depend on the processing

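With 1 library per genotype, no library could be left out, and depth limits what can be said of genes under 1 FPKM. No paired analysis was possible because each genotype had 1 library. All 6 measured genes kept the sign of their difference under the 5 other pseudocounts and scalings. Their median difference was 1.025 with upper quartile scaling and 0.634 with scaling to neuroblast markers, which shift the median of all measured genes to 0.15 and −0.22. Imp and svp were the genes called higher, and none was called lower, under every alternative except 3. The higher genes numbered 4 with upper quartile scaling and 4 at a 1.5-fold threshold (Imp, svp, Syp and cas in both cases), and 1 at a 3-fold threshold (Imp). At 1.5-fold, 1 gene (chinmo) was lower. The Imp to Syp ratio in osa RNAi was 1.90 times that in wild type with a pseudocount of 1, 1.804 times at the interval bounds closest together, and 3.14 times with implied reads. The chinmo to Eip93F ratio was 0.921 times that in wild type at the closest bounds.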
